A study of Mus musculus with 12 samples.

Results

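Cells labelled Ly6G from mouse tumor were compared with cells labelled Ly6G from mouse spleen, gene by gene, by bulk RNA sequencing. A gene was kept when its deposited FPKM (sequenced fragments scaled to gene length and library size) was at least 1 in at least 3 of the 6 Ly6G libraries, and 12788 of the 54104 genes with an Ensembl identifier met that rule. The third-highest of the 6 values was 1.0005 FPKM in the member just inside the rule and 0.99975 FPKM in the gene just outside it. Of the members, 10830 were protein coding, 8714 reached 1 FPKM in all 6 libraries, 2015 in tumor libraries only and 718 in spleen libraries only. A gene of the last 2 kinds entered because it was high in 1 tissue, so counts over such genes carry no weight of their own. The series holds 12 libraries in 4 groups of 3, with the labels Ly6G and Ly6C crossed with spleen and tumor, and its design text contrasts polymorphonuclear with monocytic myeloid-derived suppressor cells. Its title concerns inhibition of MAPK signaling in tumors. For the 6 Ly6G libraries the labels give mouse, tissue and a number from 1 to 3. They give no strain, sex, age, tumor model, treatment, sorting gate or time, and none of the groups is labelled as treated. Nothing in them says whether the numbered samples are separate animals or pools, so the p-values below measure only the spread between these samples, which may be technical.

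Ly6G is a surface protein carried mainly by mouse neutrophils. Neutrophils mature in the bone marrow under the transcription factors C/EBPα, C/EBPε, PU.1 and Gfi1, and load their granules in waves, primary granule enzymes first and secondary and tertiary granule proteins later. In tumor-bearing mice, neutrophil-lineage cells accumulate in spleen and tumor, and those that restrain T cells are called polymorphonuclear myeloid-derived suppressor cells. Arginase, inducible nitric oxide synthase, prostaglandin synthesis and checkpoint ligands are among the means of suppression described for them.

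Promoters of genes the comparison turns on are shown first, because 17 of 18 secondary and tertiary granule genes were lower in Ly6G tumor while chemokine and NF-kappaB feedback genes were higher. Each line holds the 250 bases before the transcription start in RefSeq (GRCm38.p6), 5′ to 3′ on the gene's strand, with matches of the C/EBP, PU.1, AP-1 and NF-kappaB words given below in capitals and those of the hypoxia word unmarked. Ly6g encodes the antigen that the samples are named for and holds a C/EBP and a PU.1 match, Ltf encodes lactoferrin of secondary granules, and Ngp encodes neutrophilic granule protein. Cxcl1 encodes a neutrophil-attracting chemokine and Tnfaip3 an inhibitor of NF-kappaB signaling. All lie on the plus strand except Tnfaip3.
Ly6g chr15:75155011-75155260: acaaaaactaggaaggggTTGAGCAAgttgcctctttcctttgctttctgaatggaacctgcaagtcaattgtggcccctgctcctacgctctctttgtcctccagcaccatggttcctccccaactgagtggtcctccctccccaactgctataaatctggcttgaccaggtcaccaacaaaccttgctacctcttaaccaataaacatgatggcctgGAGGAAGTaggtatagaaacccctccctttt
Ltf chr9:111019042-111019291: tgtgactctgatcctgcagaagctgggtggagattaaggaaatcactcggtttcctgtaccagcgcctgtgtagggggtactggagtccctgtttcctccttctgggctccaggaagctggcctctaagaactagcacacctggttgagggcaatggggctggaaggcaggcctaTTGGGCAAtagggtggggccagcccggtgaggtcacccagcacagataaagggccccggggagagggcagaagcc
Ngp chr9:110419558-110419807: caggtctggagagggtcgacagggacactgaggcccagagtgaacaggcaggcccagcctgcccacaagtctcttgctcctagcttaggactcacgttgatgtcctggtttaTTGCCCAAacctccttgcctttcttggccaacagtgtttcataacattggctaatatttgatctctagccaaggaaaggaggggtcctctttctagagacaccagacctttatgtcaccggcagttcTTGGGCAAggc
Cxcl1 chr5:90890995-90891244: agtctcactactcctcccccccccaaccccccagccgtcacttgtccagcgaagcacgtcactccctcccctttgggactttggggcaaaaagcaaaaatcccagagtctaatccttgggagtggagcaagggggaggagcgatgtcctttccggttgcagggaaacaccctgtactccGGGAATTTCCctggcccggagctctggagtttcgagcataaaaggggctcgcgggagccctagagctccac
Tnfaip3 chr10:19015411-19015660: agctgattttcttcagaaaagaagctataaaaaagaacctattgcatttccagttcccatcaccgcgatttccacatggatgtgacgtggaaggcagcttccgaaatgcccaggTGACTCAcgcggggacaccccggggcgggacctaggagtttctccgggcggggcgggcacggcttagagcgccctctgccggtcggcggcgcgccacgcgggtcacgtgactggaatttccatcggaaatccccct
The motifs searched on both strands were TTGCNNAA for C/EBP, GAGGAAGT for PU.1, TGANTCA for AP-1, a kappaB word of 10 letters (capitals in the Cxcl1 line, where the fifth letter may be any base) for NF-kappaB and ACGTG for the hypoxia response, in a window from 250 bases before to 50 after the start. The AP-1 and C/EBP words can overlap where they share bases, and ACGTG can lie inside longer words. The C/EBP word was in 8.29% of the 8768 member promoters in the table, in 7.52% of 2845 promoters of members at least 1 log2 unit higher in tumor, and in 12.7% of 1177 promoters of members at least 1 log2 unit lower, against 10.8% of all 27025 promoters. The PU.1 word was in 3.49% of member promoters, 2.53% of the higher set and 7.82% of the lower set, against 3.28% of all. Among the 14 secondary and tertiary granule genes with a promoter in the table, 6 held the C/EBP word and 3 the PU.1 word. The AP-1 word was in 5.02% of member promoters, 5.34% of the higher set and 6.8% of the lower set (7.93% of all), and the NF-kappaB word in 0.399%, 0.457% and 0.425% (0.385% of all). The hypoxia word was in 26.4% of member promoters, 27.1% of the higher set and 20.8% of the lower set (19.7% of all). These shares describe letters in a window, not binding.

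The depth of the libraries is unknown, because the deposited FPKM could not be traced back to whole fragments. Total FPKM was 424208 to 444645 in the 3 Ly6G spleen libraries and 329275 to 352958 in the 3 Ly6G tumor libraries, and 10379 to 10784 genes against 12246 to 12337 genes reached 1 FPKM. Log2 values correlated across genes at r = 0.974 to 0.986 within spleen, 0.972 to 0.980 within tumor and 0.611 to 0.686 between tissues. The S100a8 and S100a9 transcripts took 28.1% ± 4.08 of all FPKM in Ly6G spleen and 1.68% ± 0.552 in Ly6G tumor (SD, n = 3). Mitochondrially encoded genes took 2.14% ± 0.155 in spleen and 5.15%, 5.25% and 11.4% in the 3 tumor libraries, so tumor replicate 3 stood apart in that measure. Tumor replicate 1 had the lowest summed level of 20 pan-leukocyte genes, 450.8 FPKM against 724 and 779 in the other tumor libraries and 5291 to 5483 in spleen. Each count of members below was also computed without each library, and values are given where they matter.

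The label was checked against Ly6g, which lies at chr15:75155240-75159126 in GRCm38. Its level was 591, 644 and 717 FPKM in the 3 Ly6G spleen libraries and 31.5, 54.1 and 31.6 FPKM in the 3 Ly6G tumor libraries. For comparison, it was 157, 131 and 209 FPKM in Ly6C spleen and 13.3, 11.8 and 13.8 FPKM in Ly6C tumor. Within each tissue the Ly6G libraries were higher than the Ly6C libraries, but every Ly6G tumor library was below every Ly6C spleen library. The change of Ly6g in log2(FPKM + 1), tumor minus spleen, was -4.06 ± 0.22 (SE), adjusted p = 1.45e-08. Ly6c2 (which encodes part of the Ly6C antigen) fell from 236, 237 and 169.5 to 5.31, 7.80 and 6.98 FPKM and Ly6c1 rose from 10.1, 8.48 and 6.47 to 60.4, 64.7 and 44.8 FPKM, without overlap of the tissues for either gene. Itgam, which encodes CD11b, was at 19.6, 11.3 and 1.40 FPKM in spleen and 2.18, 2.78 and 2.67 FPKM in tumor and did not pass (-1.26 ± 0.83 (SE), adjusted p = 0.182). Its spleen replicate 3 lay below all tumor libraries, and without that library the change was -2.17 and passed. Gm49368, a gene model that overlaps Itgam on the same strand and can take its reads, was at 178, 240.0 and 161 FPKM in spleen and 43.4, 56.6 and 64.8 FPKM in tumor (-1.79 ± 0.27 (SE), adjusted p = 8.23e-05), so the value of Itgam alone is uncertain.

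The 15 neutrophil markers were all lower in Ly6G tumor, with a median change of -4.06, and 10 of them stayed lower when each library was divided by its pan-leukocyte genes, while keratin and fibroblast transcripts that were near 0 in spleen were higher in tumor. In bulk RNA, fewer cells of a type and less RNA per cell cannot be told apart. Summed neutrophil markers were 165548, 161487 and 129827 FPKM in spleen and 4439, 8763 and 7371 FPKM in tumor, with tumor replicate 1 lowest. The 20 pan-leukocyte genes, among them Ptprc (CD45), were all lower as well, with a median of -2.58. Ptprc itself was at 34.8, 52.5 and 35.1 FPKM in spleen and 7.66, 13.95 and 13.9 FPKM in tumor. Krt8 and Krt18, which encode the keratin pair of simple epithelia and of many tumor lines, were the only members of the 12 epithelial markers. Krt8 was at 0.263, 0.0738 and 0.0725 FPKM in spleen and 574, 520.0 and 356 FPKM in tumor. The highest value of the other 10 epithelial markers, Epcam and Cdh1 included, was 1.30 FPKM in the 6 libraries (Krt14 in tumor replicate 1). Both reached 1 FPKM in tumor libraries only, as did 6 of the 7 fibroblast markers that were members, so the rule that chose the members fixed their direction. The sum of the 9 listed fibroblast genes was 4.14 to 6.44 FPKM in spleen and 156.8, 137 and 329 FPKM in tumor replicates 1, 2 and 3. These sums moved with the tissue, and their part in the gene changes below was not tested.

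**Figure D1:**
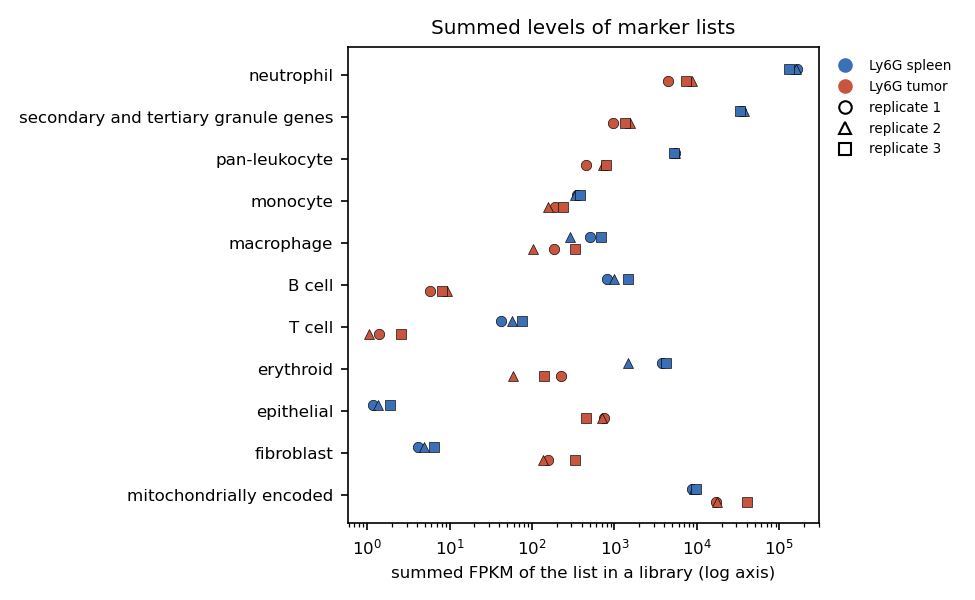
Summed FPKM of each marker list (x axis, log scale) in each Ly6G library, with spleen in blue, tumor in red and the replicate given by the symbol. Neutrophil and pan-leukocyte sums are lower in all 3 tumor libraries than in all 3 spleen libraries, and epithelial (Krt8 and Krt18) and fibroblast sums are higher.

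Most members differed between the tissues, more of them upward. In the limma model, 9844 of 12788 members (77%, against 76.2% of all 13610 genes tested) had a Benjamini-Hochberg adjusted p below 0.05, 6630 of them higher and 3214 lower in Ly6G tumor. That is 51.8% higher and 25.1% lower, against 51.5% and 24.7% of all genes tested, and these shares are the background for the lists that follow. Changes of at least 1 log2 unit were reached by 4114 members upward (32.2%, against 31% of all genes tested) and 1817 downward (14.2%, against 13.6%). The 3 tumor values lay above all 3 spleen values in 6851 members (53.6%, against 53.2%) and below in 3370 (26.4%, against 26%). Among the 10055 members that were not restricted to 1 tissue at 1 FPKM, 46% were higher and 24.9% lower. The median change was 0.43 over members and over all genes tested. The balance depended on the scaling of the libraries. Of the members called, 67.4% were higher on the deposited scale and 75.9% when every library was brought to an equal sum (TPM scale). They were 50.7% when libraries were divided by median-of-ratios size factors (ratio scale) and 50.6% under quantile normalization. The median change on these 3 scales was 0.70, 0.01 and -0.00. A further scale divided each library by the level of the 20 pan-leukocyte genes (leukocyte scale). It moved the median to 2.36, and 95.8% of the members called were then higher. Of the 6630 higher members, 4565 were called higher on all of these scales. Of the 3214 lower members, 2449 were called lower on the TPM, ratio and quantile scales together, and on the leukocyte scale 498 were called lower and 1933 higher. List counts below are on the deposited scale, and a scale is named where it turned the balance of higher and lower genes in a list. A gene may sit on several lists. Lists can hold genes that reached 1 FPKM in 1 tissue only, whose direction the rule for members fixed.

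**Figure D2:**
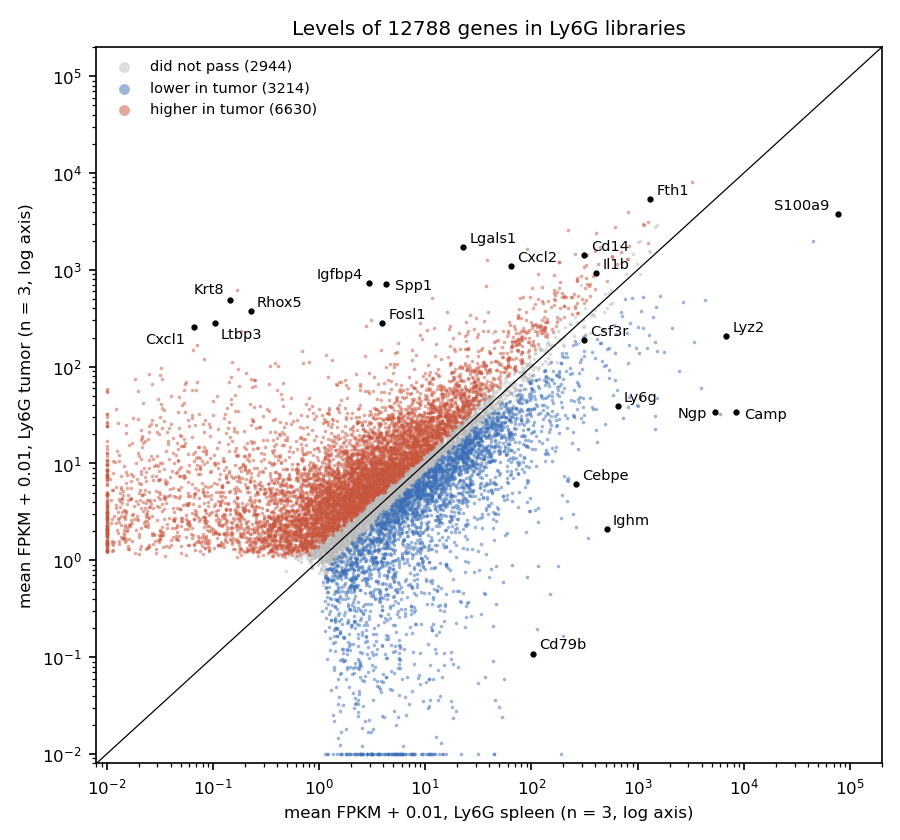
Mean FPKM + 0.01 of the 12788 members in Ly6G spleen (x axis) and Ly6G tumor (y axis), both on log axes, 3 libraries each, coloured by the limma call. Points below the diagonal include the granule genes Camp and Ngp and the B cell gene Cd79b, and points at the upper left include Krt8, Rhox5, Ltbp3 and Cxcl1, with spleen levels under 1 FPKM.

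Transcription factors of the neutrophil lineage split. Of 22 listed, 12 were lower, 6 higher and 4 did not pass, with a median change of -0.66; on the leukocyte scale 16 were higher and 2 lower. Cebpe, which drives secondary granule genes, fell most. Its level was 294, 255 and 238 FPKM in spleen and 3.40, 10.5 and 4.59 FPKM in tumor, a change of -5.32 ± 0.31 (SE), adjusted p = 2.75e-08. Spi1, which encodes PU.1, changed by -2.47 ± 0.37 and Cebpd by -2.55 ± 0.21. Bhlhe40, a transcription factor of inflammatory myeloid cells, rose most, from 11.1, 7.64 and 6.26 to 43.1, 37.7 and 47.9 FPKM (2.26 ± 0.18 (SE), adjusted p = 3.74e-07). Cebpa (1.27 ± 0.35) and Cebpb (1.21 ± 0.34), the factors of early and of emergency granulopoiesis, also rose. Thus Cebpa and Cebpb were higher in the libraries in which Cebpe and Spi1 were lower.

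Secondary and tertiary granule genes had the lowest median change of the functional gene lists. All 18 secondary and tertiary granule genes were members and 17 were lower, and the median was -4.50. On the leukocyte scale 12 were lower and 2 higher. Camp encodes the cathelicidin antimicrobial peptide and lies at chr9:109847379-109849617. It was at 8910.0, 7088 and 9305 FPKM in spleen and 4.17, 88.9 and 7.77 FPKM in tumor (-9.03 ± 0.83 (SE), adjusted p = 1.19e-06). Tumor replicate 2 was the highest tumor library, and all 3 tumor values were far below all 3 spleen values. Ltf showed the same order, with 6287, 6435 and 5071 FPKM in spleen and 6.31, 80.1 and 11.1 FPKM in tumor (-8.26 ± 0.70 (SE), adjusted p = 5.76e-07). Ngp was at 5801, 5618 and 4775 FPKM and 10.5, 76.5 and 15.2 FPKM (-7.79 ± 0.53 (SE), adjusted p = 9.66e-08). Replicate 2 was again the highest tumor library for both genes. Chil3 (Ym1, a chitinase-like lectin) changed by -6.10 ± 0.41, Cd177 (a neutrophil surface glycoprotein) by -5.55 ± 0.28 and Itgb2l (an integrin chain of neutrophils) by -5.75 ± 0.33. Retnlg, a resistin-like secreted protein, was at 554, 6436 and 6070.1 FPKM in spleen and 427, 519.5 and 531 FPKM in tumor, so spleen replicate 1 was close to the tumor level (-2.51 ± 0.75 (SE), adjusted p = 0.0097). Adam8 alone did not pass (-0.66 ± 0.31 (SE), adjusted p = 0.0698).

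Of 12 primary granule genes, 11 were lower and 1 higher, with a median of -3.10, and 6 reached 1 FPKM in spleen libraries only. Serpinb1a, an inhibitor of granule proteases, was at 329, 291 and 177 FPKM in spleen and 1.05, 3.94 and 1.64 FPKM in tumor (-6.43 ± 0.32 (SE), adjusted p = 8.61e-09). Elane (neutrophil elastase) was at 23.4, 29.7 and 14.6 and 0.252, 1.02 and 0.0819 FPKM, and Mpo (myeloperoxidase) at 14.4, 18.3 and 8.07 and 0.198, 0.671 and 0.135 FPKM. All 3 were separated between tissues, with the tumor libraries low. Mpo was below 1 FPKM in every tumor library, so the rule for members fixed its direction. The exception was Igfbp4, an insulin-like growth factor binding protein that is listed with early neutrophil genes and is also made by stromal cells. It was at 3.16, 2.67 and 3.07 FPKM in spleen and 681, 686 and 822 FPKM in tumor (7.52 ± 0.14 (SE), adjusted p = 4.93e-12). The list thus holds 1 gene that moved against all the others.

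Calcium-binding and stefin genes were mostly lower, 11 of 15 against 3 higher, with a median of -2.13; on the leukocyte scale 6 were higher and 2 lower. S100a8 and S100a9, which together form calprotectin, lie at chr3:90668978-90670035 and chr3:90692632-90695721. S100a9 was at 85720.0, 77210.4 and 68073 FPKM in spleen and 2334, 4861 and 4003 FPKM in tumor (-4.43 ± 0.34 (SE), adjusted p = 2.67e-07). S100a8 was at 51322, 51501 and 31353 FPKM and 1272, 2518 and 2214 FPKM (-4.50 ± 0.35 (SE), adjusted p = 2.75e-07). In both genes tumor replicate 1 was the lowest of the 6 Ly6G libraries, and S100a9 was still among the 10 genes of highest mean in tumor. S100a4, a calcium-binding protein of motile and mesenchymal cells, rose instead, from 21.3, 27.5 and 62.5 to 661, 810.5 and 575 FPKM (4.30 ± 0.49 (SE), adjusted p = 7.28e-06). S100a10 rose as well (3.37 ± 0.40). The stefins Stfa1, Stfa2, Stfa3 and BC100530 are near-identical copies, so their separate values are uncertain.

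Receptors through which neutrophils sense chemoattractants were lower in tumor for 7 of 10 members and higher for 2, with a median of -1.82; 5 were higher and 1 lower on the leukocyte scale. Fpr2, a formyl peptide receptor, was at 398, 411 and 339 FPKM in spleen and 25.8, 44.6 and 40.2 FPKM in tumor (-3.37 ± 0.25 (SE), adjusted p = 2.1e-07). Cxcr2, the receptor of Cxcl1 and Cxcl2, was at 72.7, 119.9 and 75.7 and 9.44, 20.2 and 15.97 FPKM (-2.50 ± 0.33 (SE), adjusted p = 2.29e-05). Cxcr4, which retains neutrophils in the marrow, was at 115, 108 and 123 and 23.1, 36.5 and 37.5 FPKM (-1.83 ± 0.22 (SE), adjusted p = 1.1e-05). Tissues did not overlap for any of these receptors. Gpr35 rose from 2.54, 3.13 and 6.56 to 6.85, 13.4 and 13.7 FPKM (1.31 ± 0.44 (SE), adjusted p = 0.0181), and did not pass without spleen replicate 1 (1.09), spleen replicate 2 (1.20), tumor replicate 2 (1.16) or tumor replicate 3 (1.15).

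Among 21 growth factor and cytokine receptors 11 were lower and 4 higher, with a median of -0.63. On the leukocyte scale 19 were higher and none lower. Of the 21, 2 reached 1 FPKM in tumor libraries only, Il1r1 among them, so the rule for members fixed their direction. Csf3r, the G-CSF receptor, was at 235, 332 and 367 FPKM in spleen and 129, 230.3 and 210.3 FPKM in tumor (-0.73 ± 0.30 (SE), adjusted p = 0.0408). That change did not pass without spleen replicate 2 (-0.67), spleen replicate 3 (-0.60) or tumor replicate 1 (-0.47). It was thus much smaller than the change of Ly6g or of the granule genes in the same libraries. Il17ra fell from 56.4, 55.1 and 69.6 to 11.4, 15.4 and 13.6 FPKM (-2.09 ± 0.13 (SE), adjusted p = 4.83e-08). Il1r1, the signaling receptor of interleukin-1, rose from 0.184, 0.149 and 0.227 to 12.1, 11.7 and 11.8 FPKM (3.44 ± 0.10 (SE), adjusted p = 7.02e-11), while the decoy receptor Il1r2 did not pass (0.24 ± 0.28 (SE), adjusted p = 0.445).

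Adhesion molecules were lower for 13 of 18 and higher for 3, with a median of -1.32; 10 were higher and 3 lower on the leukocyte scale. Itgb2, the common chain of leukocyte integrins, was at 555, 581 and 458 FPKM in spleen and 54.3, 81.02 and 94.1 FPKM in tumor (-2.81 ± 0.23 (SE), adjusted p = 4.52e-07). Itgb7, an integrin chain of leukocytes, rose from 13.7, 14.1 and 25.4 to 84.8, 83.7 and 92.8 FPKM (2.29 ± 0.33 (SE), adjusted p = 6.05e-05). Itgb1 (1.78 ± 0.21) and Icam1 (1.95 ± 0.31) rose too, both of which many non-leukocytes express. Jaml, a junctional adhesion molecule used to mark suppressive neutrophils, was at 11.1, 14.8 and 17.7 FPKM and 5.24, 11.3 and 6.95 FPKM, with overlapping tissues (-0.85 ± 0.26 (SE), adjusted p = 0.00979). Cd84, a receptor of the SLAM family put forward for the same use, was at 6.74, 8.72 and 7.15 and 2.43, 4.96 and 3.90 FPKM (-0.87 ± 0.20 (SE), adjusted p = 0.00169). Both markers were lower in Ly6G tumor on the deposited scale and higher on the leukocyte scale (1.61 and 1.37).

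Pattern recognition receptors were lower for 10 of 21 and higher for 2, with a median of -0.60; on the leukocyte scale 16 were higher and 4 lower. Clec4a2, an inhibitory lectin receptor, was at 66.6, 60.5 and 50.2 FPKM in spleen and 1.25, 2.03 and 2.41 FPKM in tumor (-4.39 ± 0.22 (SE), adjusted p = 8.56e-09). Cd14, the coreceptor for lipopolysaccharide, rose from 287, 299.9 and 359.6 to 1103, 1467 and 1703 FPKM (2.15 ± 0.24 (SE), adjusted p = 6.3e-06). Nlrp3, the inflammasome sensor, rose by 1.97 ± 0.35. Fc receptors and paired receptors were lower for 23 of 26 and higher for none, with a median of -2.18, while 11 were higher and 2 lower on the leukocyte scale. Clec12a, an inhibitory lectin receptor of granulocytes and monocytes, was at 24.1, 22.1 and 16.4 FPKM and 0.356, 0.595 and 0.475 FPKM (-3.88 ± 0.14 (SE), adjusted p = 6.61e-10). For Clec12a, below 1 FPKM in every tumor library, the rule for members fixed the direction. The adaptors Fcer1g (-2.66 ± 0.32) and Tyrobp (-2.15 ± 0.28), through which many of these receptors signal, fell with them.

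NADPH oxidase genes, which make the respiratory burst, were lower for 7 of 9 members and higher for none, with a median of -2.51; on the leukocyte scale 2 were higher and 2 lower. Cybb, the catalytic subunit, was at 104, 130.5 and 88.7 FPKM in spleen and 2.38, 3.56 and 3.90 FPKM in tumor (-4.67 ± 0.21 (SE), adjusted p = 3.6e-09). The cytosolic subunit Ncf1 changed by -2.51 ± 0.27. The GTPases Rac1 (-0.10 ± 0.18) and Rap1a (0.30 ± 0.56), which other cells use widely, were the 2 that did not pass. Of 13 genes of neutrophil extracellular traps and cell death, 7 were lower and 2 higher, with a median of -0.55; on the leukocyte scale 11 were higher and none lower. Padi4, which citrullinates histones in trap formation, changed by -1.81 ± 0.26 and the inflammasome adaptor Pycard by -2.46 ± 0.17. Mlkl, the executor of necroptosis, rose from 3.01, 2.34 and 2.22 to 13.2, 11.5 and 13.03 FPKM (1.95 ± 0.15 (SE), adjusted p = 2.35e-07). Of 14 BCL2 family genes 5 were higher and 1 lower, with a median of 0.34, while 3 were higher and 4 lower on the ratio scale. Without spleen replicate 2 there were 3 higher, and without tumor replicate 2 there were 2 lower. Bcl2l11 (the death activator Bim) rose from 2.16, 1.99 and 3.51 to 12.8, 14.7 and 13.4 FPKM (2.06 ± 0.19 (SE), adjusted p = 1.07e-06) and Bid changed by -2.10 ± 0.13. Mcl1, on which neutrophil survival depends, did not pass (0.11 ± 0.14 (SE), adjusted p = 0.472).

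**Figure D3:**
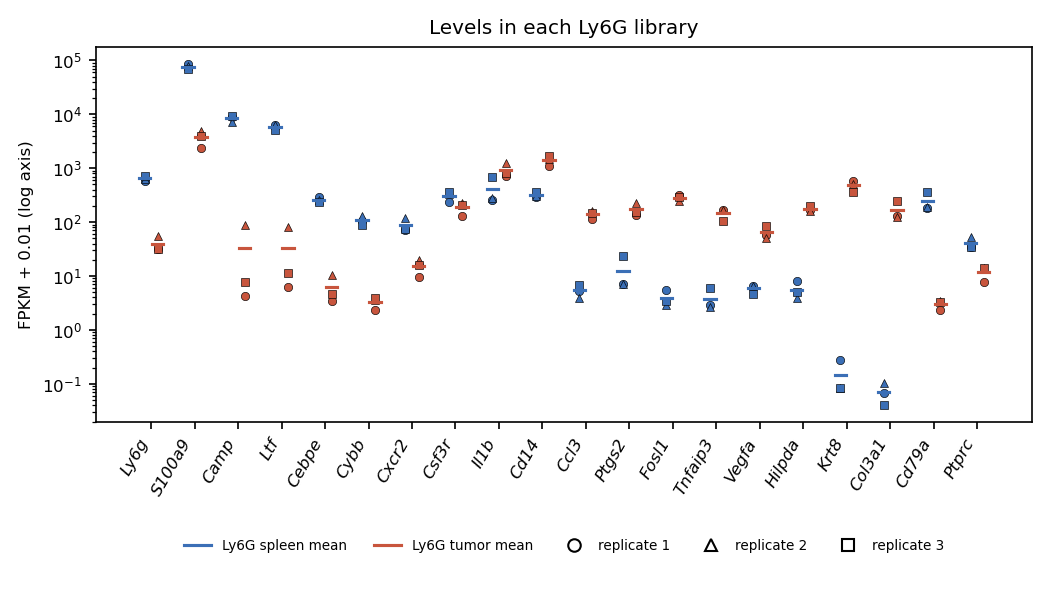
FPKM + 0.01 (log axis) of 20 genes in each Ly6G library, spleen in blue and tumor in red, with the replicate given by the symbol and the group mean of 3 libraries by the bar. Ly6g, the granule genes, Cybb and Cd79a are low in all 3 tumor libraries, and Ccl3, Ptgs2, Fosl1, Tnfaip3, Vegfa, Hilpda, Krt8 and Col3a1 are high in all 3.

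Genes of immune suppression did not move as a group. Of 15 immunosuppressive effector genes that were members, 6 were higher and 5 lower, with a median of 0.10; the balance turned on the ratio scale (5 and 7) and quantile normalization (5 and 6). Those of the prostaglandin branch rose most. Ptgs2 (cyclooxygenase-2) was at 7.25, 7.09 and 23.2 FPKM in spleen and 136, 227 and 153 FPKM in tumor (3.84 ± 0.38 (SE), adjusted p = 2.13e-06). Ptges, the prostaglandin E synthase, was at 2.57, 1.35 and 1.44 and 68.99, 66.9 and 59.3 FPKM (4.59 ± 0.36 (SE), adjusted p = 2.9e-07). Both genes were high in every tumor library. Arg1 (arginase 1) was near 0 in spleen, at 0.144, 0.0480 and 0 FPKM, and at 15.2, 5.26 and 23.8 FPKM in tumor (3.68 ± 0.41 (SE), adjusted p = 6.18e-06). Nos2 (inducible nitric oxide synthase) rose from 13.8, 19.8 and 7.36 to 51.8, 56.8 and 84.3 FPKM (2.22 ± 0.40 (SE), adjusted p = 0.000303). Cd274 (PD-L1) rose from 2.96, 3.65 and 6.64 to 24.1, 35.6 and 35.8 FPKM (2.64 ± 0.27 (SE), adjusted p = 3.24e-06). For Ptgs2, Ptges, Nos2 and Cd274 every tumor library exceeded every spleen library. Arg1 was below 1 FPKM in every spleen library, so the rule for members fixed its direction. Arg2 was at 50.3, 65.8 and 83.7 and 31.5, 49.7 and 39.1 FPKM and did not pass (-0.71 ± 0.31 (SE), adjusted p = 0.0537); without spleen replicate 1 (-0.90) or tumor replicate 2 (-0.87) it was called lower. Vsir, which encodes the checkpoint protein VISTA, fell from 78.9, 86.3 and 63.7 to 7.86, 11.4 and 11.8 FPKM (-2.78 ± 0.27 (SE), adjusted p = 1.99e-06). Markers of macrophages, which can express Arg1 in tumors, summed to 292 to 679 FPKM in spleen and to 182, 103 and 328 FPKM in tumor replicates 1, 2 and 3. The sum was lower in tumor replicates 1 and 2 than in any spleen library but ran in the same order as Arg1 over the 3 tumor libraries, and its part in the Arg1 values was not tested.

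Of 23 members among genes that mouse studies have used as signatures of suppressor cells, 10 were higher and 9 lower, with a median of -0.06. With median-of-ratios factors 7 were higher and 11 lower, and with quantile normalization 8 and 10. The rises were led by Hilpda, a lipid droplet protein induced by hypoxia, from 7.92, 3.85 and 4.94 to 169, 159 and 196 FPKM (4.78 ± 0.30 (SE), adjusted p = 4.79e-08), and by Ccl3, from 5.34, 3.95 and 6.94 to 116, 164 and 149.6 FPKM (4.50 ± 0.25 (SE), adjusted p = 2.16e-08). The interferon-induced membrane proteins Ifitm1, Ifitm2 and Ifitm3 of the same list fell (-1.59 ± 0.44, -1.88 ± 0.19 and -1.59 ± 0.18). Il1b was at 263, 278 and 683 FPKM in spleen and 719.9, 1247 and 831 FPKM in tumor (1.30 ± 0.39 (SE), adjusted p = 0.00933). Spleen replicate 3 held the highest Il1b of its group and came close to tumor replicate 1.

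The eicosanoid list split by branch, with 5 of 15 higher and 9 lower and a median of -1.01, and 3 reached 1 FPKM in spleen libraries only; on the leukocyte scale 8 were higher and 1 lower. Besides Ptgs2 and Ptges, the phospholipase Pla2g4a (0.71 ± 0.13) rose. The leukotriene genes Alox5, Alox5ap and Lta4h were lower. Alox5 (5-lipoxygenase) was at 96.5, 124 and 62.04 FPKM and 7.78, 10.3 and 9.23 FPKM (-3.19 ± 0.28 (SE), adjusted p = 7.91e-07), its partner Alox5ap changed by -2.95 ± 0.31, and the leukotriene A4 hydrolase Lta4h by -2.80 ± 0.18. Hpgd, which degrades prostaglandins, was at 9.41, 5.93 and 17.5 and 0, 0.0332 and 0.114 FPKM (-3.39 ± 0.37 (SE), adjusted p = 4.96e-06). For Hpgd, below 1 FPKM in every tumor library, the rule for members fixed the direction. Among 27 lipid handling and ferroptosis genes 11 were higher and 7 lower, with a median of 0.13, but 8 were higher and 13 lower on the ratio scale and 9 and 11 with quantile normalization. Fth1 (ferritin heavy chain) rose from 1308, 1166 and 1486 to 4824, 6088 and 5285 FPKM (2.03 ± 0.16 (SE), adjusted p = 3.86e-07), and the iron exporter Slc40a1 fell from 41.1, 41.6 and 47.7 to 1.25, 2.58 and 2.54 FPKM (-3.86 ± 0.21 (SE), adjusted p = 1.49e-08). Of 20 NRF2 antioxidant genes 10 were higher and 4 lower, with a median of 0.50. The metal-binding Mt2 rose from 13.5, 5.85 and 7.18 to 289.8, 175 and 165 FPKM (4.45 ± 0.30 (SE), adjusted p = 9.36e-08), and G6pdx, which supplies NADPH to the oxidase, fell from 435, 503 and 282 to 33.6, 44.4 and 30.9 FPKM (-3.43 ± 0.23 (SE), adjusted p = 7.61e-08).

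The MAPK pathway is the one that the series title names. The kinases and adaptors of the cascades did not shift together, with 14 of 32 higher and 12 lower and a median of 0.11. Of the 32, 3 reached 1 FPKM in tumor libraries only, Mapk12 among them, so the rule for members fixed their direction. The balance was 8 and 16 on the ratio scale, 10 and 15 with quantile normalization, and 12 and 13 after removal of S100a8 and S100a9. Mapk3 (ERK1) was at 190.1, 152 and 182 FPKM in spleen and 62.1, 51.1 and 69.9 FPKM in tumor (-1.50 ± 0.17 (SE), adjusted p = 8.41e-06). Mapk14 (p38α) was at 17.5, 24.97 and 11.1 and 7.66, 8.16 and 7.43 FPKM (-1.04 ± 0.22 (SE), adjusted p = 0.00109). Of the p38 kinases, Mapk13 fell from 181, 189.8 and 133 to 8.94, 15.8 and 15.5 FPKM (-3.57 ± 0.29 (SE), adjusted p = 4.02e-07) and Mapk12 rose from 0.482, 0.354 and 0.700 to 15.1, 13.1 and 12.1 FPKM (3.26 ± 0.13 (SE), adjusted p = 1.07e-09). Mapk3 and Mapk14 were higher on the leukocyte scale (1.22 and 1.46).

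Transcripts that ERK signaling induces were higher almost throughout. Of 27 members among ERK target and feedback genes, 26 were higher and 1 lower, with a median of 2.65 against 0.43 over all genes tested; 9 of them reached 1 FPKM in tumor libraries only. Between 22 and 27 were higher on the other scales. Fosl1, an AP-1 subunit at chr19:5447547-5455946, was at 5.48, 2.95 and 3.40 FPKM in spleen and 317, 247 and 287 FPKM in tumor (5.87 ± 0.22 (SE), adjusted p = 8.6e-10). Etv4, an ETS factor downstream of ERK, was at 0.0662, 0.0177 and 0.0265 and 40.97, 35.5 and 24.4 FPKM. Dusp6, the phosphatase that switches ERK off, was at 34.3, 33.5 and 40.1 and 109, 106 and 90.2 FPKM (1.47 ± 0.14 (SE), adjusted p = 1.32e-06). In Fosl1 and Dusp6 all tumor values were above all spleen values. Etv4 was below 1 FPKM in every spleen library, so the rule for members fixed its direction. Myc was at 9.13, 9.21 and 17.9 and 316, 215 and 214 FPKM (4.29 ± 0.28 (SE), adjusted p = 6.48e-08). Ereg (the growth factor epiregulin) stood at 0 in each of the spleen libraries and at 18.2, 17.6 and 14.8 FPKM in tumor. Myc was separated between the tissues as well, and for Ereg the rule for members fixed the direction. Plaur, the urokinase receptor of many myeloid cells, was the lower one, at 282, 229.7 and 251 and 152, 201 and 197 FPKM (-0.48 ± 0.19 (SE), adjusted p = 0.034); it did not pass without spleen replicate 1 (-0.40), spleen replicate 3 (-0.48) or tumor replicate 1 (-0.35). Keratin, fibroblast and oncofetal transcripts were higher in the same libraries, and their part in this count was not tested.

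Immediate-early and AP-1 genes rose for 12 of 18 and fell for 2, with a median of 1.11. Jun was at 123, 77.2 and 101 FPKM in spleen and 671, 648 and 611 FPKM in tumor, but its partner Fos was at 564, 483 and 668 and 454, 503 and 405 FPKM and did not pass (-0.32 ± 0.23 (SE), adjusted p = 0.212). Ier2 fell from 407, 279 and 629.8 to 177, 206 and 142 FPKM (-1.26 ± 0.29 (SE), adjusted p = 0.00182). Genes that respond to cell dissociation overlap this list, and 9 of 11 of them were higher and 1 lower, with sums of 1049 to 1834 FPKM in spleen and 2467 to 2867 FPKM in tumor. Whether tissue handling differed is not given in the labels and was not tested. NF-kappaB subunits and targets were higher for 15 of 19 and lower for 2, with a median of 0.95. Tnfaip3, whose promoter is shown above, was at 2.84, 2.60 and 5.96 FPKM in spleen and 168, 171 and 106 FPKM in tumor (4.99 ± 0.27 (SE), adjusted p = 1.41e-08). Nfkbia, the inhibitor IκBα, was at 104, 80.8 and 87.3 and 1834, 1852 and 1184 FPKM (4.12 ± 0.22 (SE), adjusted p = 1.52e-08). Cd83, an activation marker of dendritic and B cells, fell from 3.53, 6.99 and 7.998 to 1.79, 0.829 and 2.17 FPKM (-1.44 ± 0.27 (SE), adjusted p = 0.000429). So 2 feedback inhibitors of the pathway showed its largest rises.

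JAK, STAT and SOCS genes were even, with 5 of 17 higher and 5 lower and a median of 0.07. The balance was 8 and 2 on the TPM scale and 2 and 9 on the ratio scale. Socs5, a suppressor of cytokine signaling, rose from 1.37, 1.17 and 1.94 to 7.95, 8.34 and 7.50 FPKM (1.85 ± 0.16 (SE), adjusted p = 6.8e-07) and Stat4 fell from 7.38, 8.997 and 4.80 to 0.573, 1.40 and 0.696 FPKM (-2.08 ± 0.26 (SE), adjusted p = 1.58e-05). Interferon response genes were lower for 8 of 24 and higher for 5, with a median of -0.14; on the TPM scale 5 were higher and 5 lower, on the leukocyte scale 24 were higher, and without spleen replicate 3 there were 8 higher. Oas3, an antiviral synthetase, fell from 28.3, 36.3 and 35.9 to 10.2, 11.6 and 12.4 FPKM (-1.47 ± 0.13 (SE), adjusted p = 1.18e-06). Cxcl10, a T cell attractant that NF-kappaB also induces, rose from 0.557, 0.537 and 1.01 to 20.3, 16.5 and 16.4 FPKM (3.46 ± 0.19 (SE), adjusted p = 1.67e-08).

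Chemokine and cytokine transcripts were among the strongest rises. Of 15 chemokine members 12 were higher and 1 lower, with a median of 3.12, and 4 reached 1 FPKM in tumor libraries only. The Cxcr2 ligand Cxcl1 rose most. Cxcl1 (chr5:90891241-90893115) was at 0.0762, 0.0635 and 0.0282 FPKM in spleen and 311, 292 and 167 FPKM in tumor (7.88 ± 0.25 (SE), adjusted p = 1.64e-10). Cxcl2, which neutrophils themselves make, was at 68.5, 68.8 and 55.6 and 975, 1254 and 1041 FPKM (4.06 ± 0.24 (SE), adjusted p = 2.97e-08), and Cxcl3 at 0.440, 0.392 and 0.368 and 82.2, 124 and 99.9 FPKM (6.18 ± 0.17 (SE), adjusted p = 7.77e-11). Ccl2, the monocyte attractant, was at 2.63, 3.91 and 1.76 and 317, 242 and 224 FPKM (6.15 ± 0.27 (SE), adjusted p = 2.63e-09). No tumor value of Cxcl2 or Ccl2 fell into the spleen range. Cxcl1 and Cxcl3 were below 1 FPKM in every spleen library, so the rule for members fixed their direction. Cxcr2, the receptor of Cxcl1 and Cxcl2, was lower in tumor. Ccl5 fell from 2.15, 2.08 and 3.63 to 0.918, 0.721 and 0.556 FPKM (-1.04 ± 0.18 (SE), adjusted p = 0.000225). Its tumor values were all below 1 FPKM, so the rule for members fixed its direction. Of 16 cytokine members 11 were higher and 4 lower, with a median of 1.89, and 6 reached 1 FPKM in tumor libraries only. Il23a was at 0.0345, 0 and 0 FPKM in spleen and 17.7, 16.9 and 9.27 FPKM in tumor (3.90 ± 0.19 (SE), adjusted p = 5.68e-09). Il1a was at 0.512, 0.640 and 0.670 and 14.2, 14.6 and 13.04 FPKM (3.22 ± 0.10 (SE), adjusted p = 1.8e-10). Csf2, which encodes GM-CSF, stood at 0 in each spleen library and was at 6.70, 5.42 and 3.24 FPKM in tumor. All 3 cytokines were below 1 FPKM in every spleen library, so the rule for members fixed their direction. Tnfsf13b (the B cell survival factor BAFF) fell from 3.01, 2.13 and 3.95 to 0.401, 0.453 and 0.489 FPKM (-1.45 ± 0.16 (SE), adjusted p = 4.67e-06). It reached 1 FPKM in spleen libraries only, so the rule for members fixed its direction too.

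Matrix and protease genes rose for 18 of 21 members and fell for 3, with a median of 3.34, and 11 reached 1 FPKM in tumor libraries only. The 3 that fell were Mmp8 (-3.41 ± 0.34), Mmp9 (-2.94 ± 0.37) and Plaur, of which the metalloproteinases are stored in neutrophil granules. Ltbp3, which tethers latent TGF-β to the matrix, rose most, from 0.0941, 0.0724 and 0.115 to 312, 329.6 and 209.6 FPKM (7.996 ± 0.18 (SE), adjusted p = 1.84e-11). Spp1 (osteopontin) was at 5.26, 3.49 and 4.11 FPKM in spleen and 659, 733 and 743 FPKM in tumor (7.09 ± 0.18 (SE), adjusted p = 3.5e-11), and Lgals1 (galectin-1) at 19.1, 19.2 and 29.9 and 1715, 1721 and 1712 FPKM (6.21 ± 0.37 (SE), adjusted p = 3.25e-08). Genes that were no member of this list but among the 12 largest rises include Hspg2 (perlecan, 7.63 ± 0.17), Lama5 (a laminin chain, 6.59 ± 0.11), Col18a1 (6.61 ± 0.12), Aebp1 (6.82 ± 0.10) and Col3a1 (a fibrillar collagen, 7.23 ± 0.26). Col3a1 was at 129, 124 and 248 FPKM in tumor, highest in the library with the highest mitochondrial share. Rhox5, a homeobox gene of the reproductive tract that is often active in tumor lines, was at 0.302, 0.287 and 0.0629 FPKM in spleen and 368, 411 and 343 FPKM in tumor (8.27 ± 0.11 (SE), adjusted p = 1.36e-12). All 6 members among oncofetal and imprinted genes rose, with a median of 4.54, and 5 of them reached 1 FPKM in tumor libraries only. Hmga2, a chromatin protein of embryonic cells, was at 0.0622, 0.0687 and 0.0309 and 37.3, 26.8 and 25.4 FPKM. Ltbp3, Col3a1, Rhox5 and Hmga2 were below 1 FPKM in every spleen library, so the rule for members fixed their direction. Which cells these transcripts came from cannot be told from bulk RNA.

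Genes of hypoxia rose for 18 of 21 members and fell for 1, with a median of 1.93, and 4 reached 1 FPKM in tumor libraries only. The count of higher genes was 18 on the TPM, ratio and quantile scales too. Adm (the vasodilator adrenomedullin) was at 0.278, 0.164 and 0.744 FPKM in spleen and 64.8, 35.7 and 69.9 FPKM in tumor (5.34 ± 0.23 (SE), adjusted p = 2.14e-09). Vegfa, the main angiogenic factor, was at 6.54, 6.39 and 4.72 and 58.8, 51.6 and 83.2 FPKM (3.23 ± 0.20 (SE), adjusted p = 4.7e-08). Slc2a1, the glucose transporter, was at 52.9, 63.4 and 65.7 and 226, 194 and 275 FPKM (1.91 ± 0.17 (SE), adjusted p = 9.16e-07). Tumor replicate 3 was the highest library for all 3 genes. Bnip3l, a mitophagy receptor abundant in red cell precursors, fell from 31.2, 32.4 and 23.4 to 18.9, 19.1 and 20.4 FPKM (-0.54 ± 0.14 (SE), adjusted p = 0.00415). Of 8 angiogenic factor members 6 were higher and 1 lower, and 4 reached 1 FPKM in tumor libraries only. Prok2 (Bv8, a neutrophil-derived angiogenic factor) was that 1, at 48.8, 75.4 and 68.96 and 5.93, 15.1 and 20.7 FPKM (-2.26 ± 0.45 (SE), adjusted p = 0.000619). Nrp2 rose from 0.176, 0.192 and 0.309 to 30.3, 27.2 and 28.5 FPKM (4.60 ± 0.14 (SE), adjusted p = 1.14e-10). Adm and Nrp2 were below 1 FPKM in every spleen library, so the rule for members fixed their direction.

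Glycolysis genes were higher for 16 of 24 and lower for 3, with a median of 0.61, and 10 were higher and 7 lower on the ratio scale. Isozymes diverged. Hk3, the hexokinase of myeloid cells, fell from 166, 169 and 113 to 17.1, 23.7 and 27.8 FPKM (-2.66 ± 0.26 (SE), adjusted p = 1.81e-06), whereas Hk2 rose (2.48 ± 0.19). The lactate transporter Slc16a1 rose from 2.53, 1.59 and 3.41 to 28.05, 28.03 and 25.01 FPKM (3.03 ± 0.19 (SE), adjusted p = 4.13e-08). Ldha (-0.12 ± 0.16) and Pkm (0.22 ± 0.17), abundant in both tissues, did not pass. Nuclear oxidative phosphorylation genes were higher for 11 of 26 and lower for 6, with a median of 0.29, but on the ratio scale 5 were higher and 11 lower. Atp5b, an ATP synthase subunit, rose by 1.35 ± 0.12 and Cox5a, of cytochrome oxidase, changed by -0.89 ± 0.15. Of the 13 mitochondrially encoded genes 6 were higher, led by mt-Atp6, at 216, 218 and 227 FPKM in spleen and 1900.2, 1989.5 and 3887 FPKM in tumor (3.47 ± 0.33 (SE), adjusted p = 1.68e-06). Without tumor replicate 3, 1 of the 13 was lower.

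The unfolded protein and stress response was higher for 20 of 26 genes and lower for 1, with a median of 1.15, and for 15 with 3 lower on the ratio scale. Hspa5 (the chaperone BiP) was at 33.4, 38.98 and 31.8 FPKM in spleen and 112, 108 and 96.3 FPKM in tumor (1.58 ± 0.13 (SE), adjusted p = 4.41e-07). Hspa1a, a heat shock protein with a near-identical neighbour in Hspa1b, was at 2.42, 2.53 and 4.19 and 37.3, 42.4 and 828 FPKM (4.81 ± 1.55 (SE), adjusted p = 0.0138). Tumor replicate 3 set that value, and without it the change was 3.36 and did not pass. Herpud1, which serves the degradation of misfolded proteins, changed by -0.47 ± 0.13. Cell cycle genes were even, with 9 of 27 higher and 10 lower and a median of 0.13; the TPM scale gave 14 and 4, and the leukocyte scale 27 and 0. Cdkn1a (the inhibitor p21) was at 9.92, 4.89 and 7.53 FPKM in spleen and 136, 153 and 162 FPKM in tumor (4.20 ± 0.30 (SE), adjusted p = 1.51e-07), and Ccnd1 (cyclin D1) at 0.706, 0.878 and 2.10 and 41.6, 36.7 and 33 FPKM. Ccnd3, the D cyclin of blood cells, fell from 30.01, 28.7 and 37.2 to 7.64, 8.95 and 7.38 FPKM (-1.87 ± 0.21 (SE), adjusted p = 6.63e-06). Mki67, which marks dividing cells, changed by -1.48 ± 0.17.

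Antigen presentation differed by class. MHC class I genes were higher for 4 of 14 and lower for 2, with a median of 0.14, and on the ratio scale for 2 and 5. H2-Q4 rose (1.57 ± 0.25), H2-T23 fell (-1.61 ± 0.19) and the common chain B2m did not pass (-0.20 ± 0.20 (SE), adjusted p = 0.372), where H2-Q genes share sequence and their split is uncertain. MHC class II genes were lower for 12 of 14 and higher for 1, with a median of -3.27, and 4 reached 1 FPKM in spleen libraries only. Of the 14, 8 were lower and 3 higher on the leukocyte scale. Without spleen replicate 3 there were 2 higher. H2-Aa was at 165, 175 and 329.6 FPKM in spleen and 6.14, 3.07 and 10.5 FPKM in tumor (-4.94 ± 0.46 (SE), adjusted p = 1.46e-06), highest in spleen replicate 3. Cd80, a ligand of T cell costimulation, was the 1 that rose, from 2.07, 2.07 and 1.90 to 3.85, 6.75 and 4.94 FPKM (1.01 ± 0.16 (SE), adjusted p = 9.61e-05). B cell markers, which include abundant carriers of class II, moved the same way. Of the 12, 9 reached 1 FPKM in spleen libraries only, so the rule for members fixed the direction of those 9. Their sum over all 12 was 818, 986 and 1443 FPKM in spleen replicates 1, 2 and 3 and 5.80 to 9.27 FPKM in tumor. The sum was thus highest in the same spleen library as H2-Aa, and the part of B cell transcripts in the class II values was not tested.

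**Figure D4:**
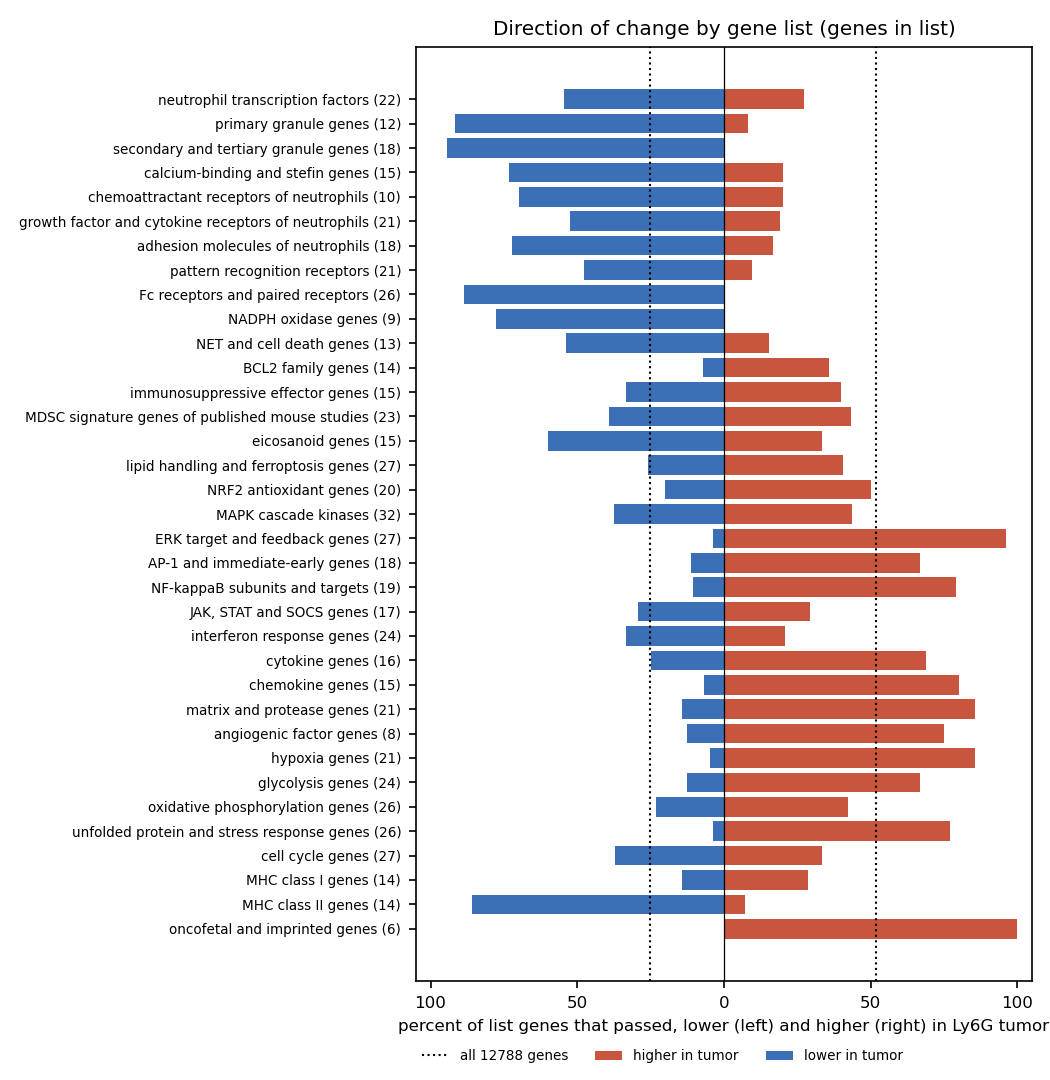
Percent of the members of each gene list that passed as higher (red, right) or lower (blue, left) in Ly6G tumor on the deposited scale, with the share over all 12788 members as dotted lines and the list's number of genes in brackets. Granule, Fc receptor, NADPH oxidase and MHC class II genes lie to the left and ERK target, matrix, hypoxia and oncofetal genes to the right; on the leukocyte scale Fc receptor genes turn to 11 higher and 2 lower and NADPH oxidase genes to 2 and 2.

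Markers of other cell types were measured to show what else moved. Cd79a, a B cell receptor chain, was at 186, 189.8 and 365 FPKM in spleen and 2.37, 3.39 and 3.30 FPKM in tumor (-5.88 ± 0.25 (SE), adjusted p = 1.95e-09). Cd79b (-6.49 ± 0.25), Ly6d (-6.49 ± 0.28) and Ptprcap (-5.71 ± 0.22), all expressed by lymphocytes, were also among the 12 largest falls. Cd79b was below 1 FPKM in every tumor library, so the rule for members fixed its direction. The 9 T cell members all reached 1 FPKM in spleen libraries only, so the rule for members fixed their direction, and the sums of the list were 41.8 to 75.5 FPKM in spleen and 1.06 to 2.54 FPKM in tumor. All 9 erythroid members were lower, 4 of which reached 1 FPKM in spleen libraries only, with sums of 1475 to 4189 FPKM against 58.2 to 226 FPKM. No NK cell or melanocyte marker was a member, and Tyr, Tyrp1 and Dct were listed at 0 throughout. Of 12 monocyte members 7 were lower and 3 higher (2 and 6 on the leukocyte scale), with sums of 329 to 383 FPKM in spleen and 154 to 236 FPKM in tumor. Without tumor replicate 2 there were 5 higher. Of 12 macrophage members 7 were lower and none higher, and 7 were higher on the leukocyte scale; without spleen replicate 3 or tumor replicate 2 there were 4 lower. C1qa, a complement component of macrophages, was at 132, 74.4 and 188 FPKM in spleen and 39.5, 11.6 and 69.3 FPKM in tumor (-1.91 ± 0.57 (SE), adjusted p = 0.00933), and the change without tumor replicate 2 was -1.21. The endothelial gene Cdh5, which was no member, was at 0.0408, 0.0230 and 0.280 FPKM in spleen and 5.69, 0.878 and 7.69 FPKM in tumor. The mast cell protease Tpsb2, no member either, was at 0.0490, 0.0424 and 0.0417 and 3.67, 0.327 and 10.6 FPKM. Tumor replicate 2 was thus the lowest and replicate 3 the highest tumor library for endothelial, mast cell and fibroblast transcripts.

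Ranked by mean level, the 10 most abundant members of Ly6G spleen were S100a9, S100a8, Camp, Lyz2, Ltf, Ngp, Retnlg, Ifitm6, Tmsb4x and mt-Co1. They took 33.0% to 40.5% of the FPKM of a spleen library when each library's own top 10 were counted, against 9.51% to 14.8% in tumor. In Ly6G tumor the order was mt-Co1, Fth1, mt-Cytb, S100a9, Gm14303, Rplp1, Gm10925, Gm28661, mt-Co2 and Eef1a1. Lyz2 (lysozyme) was at 6891, 8216 and 5275 FPKM in spleen and 136, 193 and 292 FPKM in tumor (-5.08 ± 0.34 (SE), adjusted p = 8.32e-08), and Tmsb4x (thymosin β4) at 3511, 3179 and 3584 and 123, 209.8 and 211 FPKM. mt-Co1 was at 3289, 3336 and 3174 and 5800.1, 5349 and 13031 FPKM, a change of 1.18 ± 0.37 (SE), adjusted p = 0.0124, which did not pass without tumor replicate 3 (0.77). Gm10925 and Gm28661 are pseudogenes on chromosome 1, and their values moved with those of mt-Co2. Among members with a mean of at least 50 FPKM, Cd164, Ftl2-ps, Ndufb9, Sh2d3c, Cox5b, Psmb5, Rps6-ps4 and Emilin2 changed least, between -0.02 and 0.02. Cd164 (a sialomucin) was at 60.6, 60.8 and 48.2 FPKM in spleen and 54.9, 57.6 and 56.2 FPKM in tumor. That stability was relative to the deposited scale.

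Some genes varied widely between replicates of 1 group. C5ar1, the receptor of the complement fragment C5a, was at 118, 96.8 and 4.66 FPKM in spleen and 3.23, 4.68 and 61.4 FPKM in tumor, so spleen replicate 3 and tumor replicate 3 each departed from the rest of their group (-1.82 ± 1.42 (SE), adjusted p = 0.26). Without spleen replicate 3 its change was -3.24 and passed. Tlr13, a sensor of bacterial ribosomal RNA, was at 0.000447, 25.01 and 15.4 FPKM in spleen and 5.11, 7.67 and 7.56 FPKM in tumor; without spleen replicate 1 its change was -1.43 and passed. The ribosomal protein gene Rpl17 was at 9.90, 0 and 444 and 475, 439 and 339.9 FPKM, and Snord58b, a small nucleolar RNA gene inside its span, at 211, 206 and 2.43 and 2.74, 27.3 and 9.004 FPKM. Rpl17 passed (4.62 ± 1.91 (SE), adjusted p = 0.0445) but did not pass without spleen replicate 1 (4.30), spleen replicate 2 (2.57) or any 1 tumor library (4.52, 4.57 and 4.76). Spleen libraries high in one of these overlapping genes were low in the other. Col1a1, a fibroblast collagen, was at 3.95, 1.44 and 27.9 FPKM in tumor, and its change of 2.45 ± 0.71 was 1.43 without tumor replicate 3.

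The tissue effect was then set against that of the Ly6C libraries by the interaction term of the model. In tumor, mean Ptprc was 11.8 FPKM in Ly6G and 3.76 FPKM in Ly6C, and mean Krt8 was 483 and 670 FPKM. Mean Ly6c2 was 214 FPKM in Ly6G spleen and 247 FPKM in Ly6C spleen, and 6.69 and 7.05 FPKM in tumor. Mean S100a8 was 44725.5 FPKM in Ly6G spleen and 23829.8 FPKM in Ly6C spleen. The part of these levels in the differences below was not tested. In Ly6C, 46.4% of the members were higher and 30.4% lower in tumor, against 46.2% and 30.5% of all genes tested. The interaction term passed for 2867 members (22.4%, against 21.8% of all genes tested). Of these, 2060 (16.1% of members) had a higher and 807 (6.31%) a lower change in Ly6G than in Ly6C, against 15.8% and 6.02% of all genes tested. The balance turned to 1372 and 1673 on the ratio scale and to 46 and 3741 on the leukocyte scale. Without Ly6C tumor replicate 3, 501 had a lower change. Hgs, an endosomal sorting protein, had the largest positive difference, but the annotation holds a pair of Hgs models over the same span on chromosome 11. The first (ENSMUSG00000025793) was at 0.196, 0.205 and 0.290 FPKM in Ly6G spleen, 6.75, 14.6 and 21.04 FPKM in Ly6G tumor, 12.9, 20.7 and 14.6 FPKM in Ly6C spleen and 1.02, 6.51 and 0.751 FPKM in Ly6C tumor, a difference of 5.98 ± 0.70 (adjusted p = 0.000619). The other (ENSMUSG00000116045) was at 18.6, 18.2 and 23.15 FPKM in Ly6G spleen and 21.3, 11.02 and 8.002 FPKM in Ly6G tumor, with a difference of -1.63 ± 0.39 (adjusted p = 0.0139) in the opposite direction. Libraries low in the first model were high in the other, reads can be divided between the models in either way, and neither value measures Hgs as a whole. Fn1 (fibronectin) changed by 3.13 ± 0.59 in Ly6G and -1.37 ± 0.59 in Ly6C, and F10 (coagulation factor X) by 2.62 ± 0.32 and -1.10 ± 0.32. The Ly6C change of F10 passed and that of Fn1 did not, so of this pair F10 alone changed in opposite directions under both labels. Ccl3 changed by 4.50 ± 0.25 and 1.03 ± 0.25 (difference 3.47 ± 0.36, adjusted p = 0.000371), Cdkn1a by 4.20 ± 0.30 and 0.93 ± 0.30, Thbs1 (thrombospondin) by 4.38 ± 0.36 and 1.30 ± 0.36, and Fam129b by 4.74 ± 0.33 and 1.57 ± 0.33. On the leukocyte scale the difference for Fam129b was 1.25 and did not pass. Nr4a1, an immediate-early nuclear receptor, changed by 1.35 ± 0.42 and -1.56 ± 0.42, and its change in Ly6G did not pass without spleen replicate 2 (0.96).

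In the other direction, Ly6a (the surface antigen Sca-1) rose by 1.90 ± 0.37 in Ly6G and 5.06 ± 0.37 in Ly6C (difference -3.16 ± 0.53, adjusted p = 0.0024). Igfbp6, Mt2 and Rhoc rose in both with smaller changes in Ly6G (1.73 ± 0.26 against 4.74 ± 0.26, 4.45 ± 0.30 against 6.83 ± 0.30, and 2.27 ± 0.20 against 4.64 ± 0.20). S100a6 fell in Ly6G (-1.37 ± 0.21) and rose in Ly6C (0.85 ± 0.21). Ly6d and H2-Aa fell in both, more in Ly6G. The difference for Ly6d was -1.59 and did not pass with a pseudocount of 0.1. The difference for H2-Aa did not pass without an expression filter (-2.29), nor without Ly6C spleen replicates 1 or 3, Ly6C tumor replicates 1 or 3, Ly6G spleen replicate 3 or either of Ly6G tumor replicates 1 and 2 (-1.91 to -2.31). Clec4a4 was listed at 0 in all Ly6G tumor libraries and was at 6.60, 6.40 and 3.92 FPKM in Ly6G spleen. The rule for members thus fixed the direction of its change in Ly6G. List counts of the difference were computed on the deposited scale only. Over all members the balance of differences turned on the ratio scale, under quantile normalization and on the leukocyte scale. By list, the difference was positive for 13 of 22 neutrophil transcription factors and negative for 1, with medians of -0.66 in Ly6G and -1.37 in Ly6C. For pan-leukocyte genes it was positive for 10 of 20, with medians of -2.58 and -3.70. It was negative for 7 of 12 B cell and 8 of 9 T cell markers, of which 9 and 9 reached 1 FPKM in Ly6G spleen libraries only. ERK target genes had medians of 2.65 and 2.34 and a positive difference for 6 of 27.

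**Figure D5:**
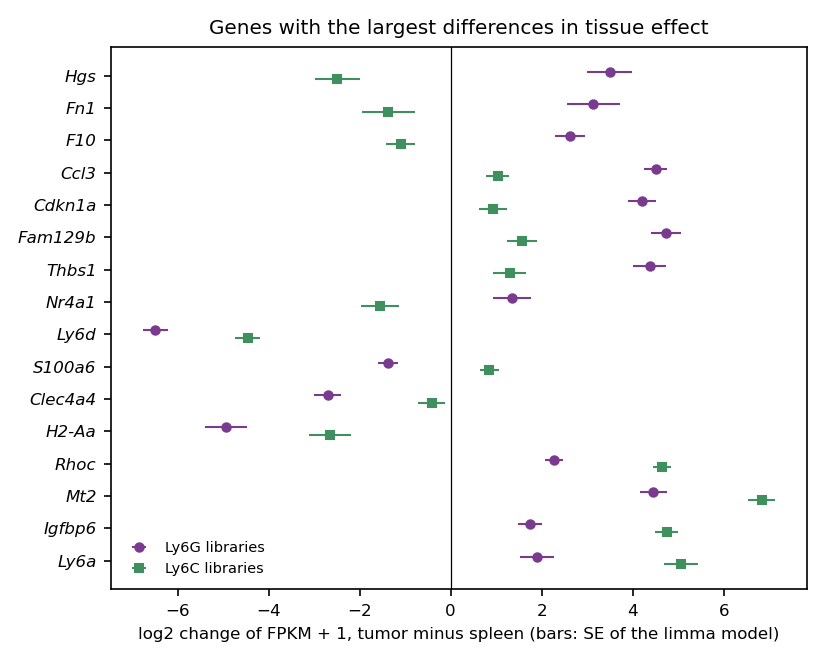
Log2 change of FPKM + 1, tumor minus spleen, in Ly6G (purple circles) and Ly6C (green squares) libraries for the 8 genes of highest and the 8 of lowest difference among members that passed and whose Ly6G tissues did not overlap, predicted genes and antigen receptor segments left out. Bars are limma standard errors on 3 libraries per group. Hgs, Fn1, F10 and Nr4a1 lie above 0 in Ly6G and below 0 in Ly6C, S100a6 the reverse, and Ly6a, Igfbp6, Mt2 and Rhoc lie above 0 in both.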

How the data were processed

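RNA of the 12 samples was purified on RNeasy columns and sequenced as paired ends on an Illumina instrument, per the labels' protocols. HISAT2 2.0.5, featureCounts 1.5.0-p3 and the build GRCm38 are named in the submitters' processing notes. How the authors computed the deposited FPKM, and with which annotation and strand setting, is not given in the sources used here. Low FPKM values of genes with 1 transcript were set against whole numbers of reads, at the best scale found per library. Of these values, 33.5% to 36.0% per library lay within 0.05 of a whole number. That is more than an even spread would give but far from all, so counts were not recovered. Rows without an Ensembl identifier were left out. Symbols and coordinates came from GENCODE M21 and promoters from RefSeq GRCm38.p6.

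The deposited FPKM were converted to log2(FPKM + 1), so changes of low genes are understated. Genes reaching 1 FPKM in 3 or more of the 12 libraries were fitted with 4 group means in limma 3.58.1 (R 4.3.3) with a variance trend and Benjamini-Hochberg adjustment over 13610 genes. Spread was shared by all 4 groups (8 residual and 3.4 prior degrees of freedom). All adjusted p-values are from limma. In simulated data only a small part of the genes was changed, all of them well expressed, with independent normal noise. There, 68% of genes changed by 1 log2 unit and 97% changed by 2 were recovered, and 5.17% of calls were false. Most members were called in the real data, so these rates do not carry over to them.

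Named genes were the 12 largest rises and falls, the extremes of each list, the 10 most abundant members per tissue, a set of known markers, the 8 extreme differences from Ly6C in each direction, and the 8 least changed and most variable members. Further members of lists were named as examples after their values were seen, and a few genes that the rule selects are not reported here. The members and lists were chosen with earlier results of these data known. Tables and figures were made with Python 3.11.15, pandas 2.3.3 and matplotlib 3.10.9. Alternatives covered the scaling, pseudocount, filter, model and each library left out.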

Additional observations from a re-analysis of the deposited data

Results flagged for a closer look

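The change between tumor and spleen differed between Ly6G and Ly6C libraries for 50 of the 158 named genes by the interaction term of the limma model (adjusted p under 0.05). Of all members 22.4% passed, against 21.8% of all genes tested. The 8 extreme differences in each direction were named because they passed this term, so the count over named genes carries no weight of its own. The differences, Ly6G change minus Ly6C change, are on the scale of log2(FPKM + 1) as deposited, and the balance of positive and negative differences over all members turned under the ratio scale, quantile normalization and the leukocyte scale.

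The first Hgs model gave a positive difference of 5.98. Positive differences of stress, matrix, coagulation and other genes were 4.50 for Fn1, 3.72 for F10, 3.27 for Cdkn1a, 3.16 for Fam129b, 3.08 for Thbs1 and 2.91 for Nr4a1. Inflammatory and signaling genes gave 3.47 for Ccl3, 1.80 for Tnfaip3, 1.36 for Fosl1, 1.30 for Bhlhe40, 1.24 for Vegfa, 1.03 for Plaur, 0.98 for Cd80, 0.93 for Mlkl, 0.89 for Cxcl10 and 0.81 for Il17ra. Neutrophil and leukocyte genes gave 2.08 for Cebpe, 1.996 for Gpr35, 1.94 for Sh2d3c, 1.89 for Hk3, 1.69 for Cd177, 1.52 for Cxcr4, 1.4997 for Itgb2l, 1.496 for Itgb7, 1.16 for Ptprc and 1.15 for Bcl2l11. Erg gave 1.68 and Igfbp4 0.63.

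Negative differences of B and T cell genes were -1.44 for Ptprcap, -1.93 for Cd79a, -1.98 for Cd79b, -2.03 for Ly6d, -2.29 for H2-Aa and -2.53 for Trbc2, the T cell receptor constant gene. Genes with a smaller rise in Ly6G gave -0.85 for Slc16a1, -0.90 for Rhox5, -1.10 for Rplp1, -1.56 for Gm14303 and -1.67 for Il1b. Further genes of this kind gave -2.36 for Rhoc, -2.38 for Mt2, -3.01 for Igfbp6 and -3.16 for Ly6a. The others were -0.72 for Cd164, -0.81 for Ndufb9, -1.19 for Rps6-ps4, -1.27 for Ccl5, -2.22 for S100a6 and -2.29 for Clec4a4. No group had more than 3 samples, so no single sample was tested for lying apart from its group.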

How the results depend on the processing

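The 6 Ly6G libraries alone, members tested alone, pseudocounts of 0.1 and 5, and no variance trend moved no total by more than 1.5 times. Called members with each library left out numbered 9293 to 9681, higher 6295 to 6563 and lower 2998 to 3118. Other totals were 4317 higher with a filter at 5 FPKM (fewer genes tested; 9 named genes have no value), 4825 lower on the ratio scale, and 11481 higher and 498 lower on the leukocyte scale. For differences from Ly6C, leaving out each library gave 2022 to 3022 calls, 1521 to 2012 positive and 501 to 1083 negative. Positive and negative differences numbered 4343 and 269 on the TPM scale (4612 in all), 3527 and 465 without S100a8 and S100a9 (genes that then have no value), 1372 and 1673 on the ratio scale, and 46 and 3741 on the leukocyte scale. Negative differences numbered 1567 with quantile normalization, 1405 with array weights and 512 without an expression filter.

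Same-numbered spleen and tumor libraries correlated in their deviations from the group means at 0.041, 0.15 and 0.028. Differently numbered libraries correlated at -0.134 to 0.0814. These values do not settle whether the numbers mark pairs. The labels do not tie the numbers to animals, so the main fit held no pairing. With the replicate block, 9838 members were called (6619 higher and 3219 lower) and 2636 differences (1927 positive and 709 negative), and no list count moved by more than 1.5 times.

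Direction turned on the TPM scale for Cd164 (0.34) and Ndufb9 (0.34), and on the ratio scale for Ftl2-ps (-0.54), Cox5b (-0.53), Psmb5 (-0.53) and Rps6-ps4 (-0.53). On the leukocyte scale it turned for Il17ra (0.56), Bid (0.27), Cxcr2 (0.16), Plaur (2.26), Ier2 (1.48), Cd83 (0.57), Oas3 (1.13), Tnfsf13b (0.010), Ccl5 (0.51), Prok2 (0.37), Bnip3l (2.07), Hk3 (0.042), Cox5a (1.71), Herpud1 (2.12), Ccnd3 (0.71), H2-T23 (1.08), C1qa (0.79), Ccr7 (0.23), Kit (0.26), Itgb3 (0.54), Mcam (0.54), Retnlg (0.25), Arg2 (1.98), Ptprc (0.89), Csf3r (2.01), Cd84 (1.37), Cxcr4 (0.88), Jaml (1.61), Mapk14 (1.46), Mapk3 (1.22), S100a6 (1.37), Cd164 (2.69), Ndufb9 (2.68), Sh2d3c (2.68), Emilin2 (2.72) and the miRNA gene Gm27529 (2.22). Tlr13 turned without Ly6G spleen replicate 1 (-1.43; 0.92 at most, without spleen replicate 2) and Gm27529 without Ly6G tumor replicate 3 (1.81; -1.24 at least, without tumor replicate 1). The cause was not tested. Of 158 named genes, 9 lost and 8 gained a call in some fit that left out 1 library. Depth is unknown, so low values carry no counting interval.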
